A study of Homo sapiens with 4 samples.

Results

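Accessible chromatin sites that appeared with TWEAK in SKBR3 cells and lay close to other such sites were examined as clusters. The members were chosen by their presence in the peak lists: a gained site had an ATAC-seq peak in the 2 TWEAK libraries but in no untreated one, and a member had at least 2 other gained sites whose centres lay within 50 kb of its own. Of 307691 sites on chromosomes 1 to 22 and X, 11080 were gained (3.60%), and 2139 of these were members. Chaining members whose adjacent centres lay within 50 kb gave 685 clusters. When 1 library was left out, so that a site was gained on 3 lists, the members numbered 7616 to 20019 and the clusters 1734 to 3692. With the 493 further gained sites that lay within 50 kb of a member and had fewer neighbours themselves, called the fringe here, the clusters held 2632 gained sites. All of these counts use the treatment contrast itself, so they are a description and carry no test.

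ATAC-seq, in which a transposase cuts open DNA, was run on SKBR3, an established breast cancer cell line of the HER2-positive subtype. The 2 libraries of TWEAK-treated cells, which received the cytokine at 10 ng/ml for 48 h with renewal at 24 h, were set against 2 untreated libraries. The growth protocol given for both groups includes 8 h of starvation in optimem. The study used SKBR3 beside triple-negative and ER-positive lines and another HER2 line, and these lists come from this 1 line. The lists held between 195388 and 228734 peaks of 501 bp each, with no read counts, so a site without a peak may still have reads under the limit of its list. The lowest enrichment that earned a peak was 2.79 and 3.13 times the background in untreated replicates 1 and 2, and 3.04 and 3.79 times in TWEAK replicates 1 and 2. As a check of the line, the starts of ERBB2, which encodes HER2, and of its neighbour GRB7 each had 198 sites within 100 kb, against a median of 28 over 19360 protein-coding genes.

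TWEAK is a cytokine of the TNF superfamily, and TNFRSF12A encodes Fn14, the receptor it binds. Fn14 recruits TRAF and cIAP adaptor proteins, which leads to activation of NF-kB dimers and of MAP kinases that act on AP-1 (dimers of FOS and JUN proteins). Both factors bind short DNA words in enhancers, and genes that respond strongly to TNF family cytokines often have several such elements spread over long stretches around them.

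The sequences of sites in named clusters show what the motif counts below rest on. Each is the plus strand of the hg38 reference within 100 bp of the centre of the better-ranked TWEAK peak, at the member that ranked highest in its cluster. Capitals mark the NF-kB consensus (a word of 10 letters on either strand) or the AP-1 consensus, TGACTCA or TGAGTCA, which are each other's reverse complement. The first 3 come from the largest clusters whose top member held a motif, and the next 3 from the clusters richest in gained sites. The last 4, chosen after their values were seen, come from the cluster near PCBD1 with the highest peaks of that kind and from 3 clusters at genes of the NF-kB response.
NEDD9 intron, chr6:11209996-11210196: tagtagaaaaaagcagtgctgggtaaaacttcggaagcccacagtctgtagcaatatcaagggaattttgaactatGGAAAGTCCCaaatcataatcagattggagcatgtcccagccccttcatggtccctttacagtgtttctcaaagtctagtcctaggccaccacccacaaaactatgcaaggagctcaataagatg
ITPR1 intron, chr3:4703174-4703374: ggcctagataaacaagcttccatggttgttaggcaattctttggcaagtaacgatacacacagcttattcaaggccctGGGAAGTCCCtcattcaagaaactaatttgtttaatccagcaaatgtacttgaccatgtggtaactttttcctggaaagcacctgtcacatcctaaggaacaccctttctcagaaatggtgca
desert nearest to C1orf94, chr1:34360730-34360930: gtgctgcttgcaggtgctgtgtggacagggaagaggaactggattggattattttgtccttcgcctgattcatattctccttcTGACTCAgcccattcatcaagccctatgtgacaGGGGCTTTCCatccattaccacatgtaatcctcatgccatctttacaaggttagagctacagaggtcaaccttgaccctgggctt
desert nearest to PKDCC, chr2:41710277-41710477: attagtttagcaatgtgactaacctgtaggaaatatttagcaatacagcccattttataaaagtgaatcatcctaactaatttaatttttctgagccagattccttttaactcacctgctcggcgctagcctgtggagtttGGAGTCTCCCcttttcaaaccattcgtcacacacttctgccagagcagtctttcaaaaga
desert nearest to PPA2, chr4:105306384-105306584: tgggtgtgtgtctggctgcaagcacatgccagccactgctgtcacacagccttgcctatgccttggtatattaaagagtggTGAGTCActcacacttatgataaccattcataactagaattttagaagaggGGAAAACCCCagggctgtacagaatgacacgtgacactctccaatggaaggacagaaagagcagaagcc
intergenic, nearest start of the cluster PPP1R2B, chr5:156888634-156888834: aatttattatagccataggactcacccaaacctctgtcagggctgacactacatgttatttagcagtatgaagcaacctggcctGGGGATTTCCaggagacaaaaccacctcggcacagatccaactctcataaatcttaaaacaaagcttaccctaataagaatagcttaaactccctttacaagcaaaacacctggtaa
desert nearest to PCBD1, chr10:70970856-70971056: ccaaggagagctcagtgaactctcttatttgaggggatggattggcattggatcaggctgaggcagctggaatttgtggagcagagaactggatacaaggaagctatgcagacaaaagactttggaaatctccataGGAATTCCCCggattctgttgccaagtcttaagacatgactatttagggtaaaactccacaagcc
CFLAR, at an internal start, chr2:201149151-201149351: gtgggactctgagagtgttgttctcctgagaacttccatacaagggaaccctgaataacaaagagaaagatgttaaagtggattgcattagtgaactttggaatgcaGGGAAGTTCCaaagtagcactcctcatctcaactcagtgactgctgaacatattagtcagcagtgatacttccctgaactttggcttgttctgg
downstream of NFKBIZ, chr3:101884878-101885078: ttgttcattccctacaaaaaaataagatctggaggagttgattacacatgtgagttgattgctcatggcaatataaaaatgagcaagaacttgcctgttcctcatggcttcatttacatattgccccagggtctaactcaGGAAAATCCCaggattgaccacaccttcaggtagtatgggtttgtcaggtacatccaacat
between BIRC3 and BIRC2, chr11:102346038-102346238: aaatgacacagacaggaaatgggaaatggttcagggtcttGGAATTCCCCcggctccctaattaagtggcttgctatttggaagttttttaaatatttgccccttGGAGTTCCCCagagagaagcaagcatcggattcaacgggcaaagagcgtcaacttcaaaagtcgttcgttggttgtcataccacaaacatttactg

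Several of these members had high peaks. The site near PCBD1 had a pileup of 52.4 times the background of the list in TWEAK replicate 1 and 56.9 times in TWEAK replicate 2, a ratio called the fold below. The folds were 46.0 and 44.4 near C1orf94, 33.4 and 54.1 in ITPR1, 33.8 and 39.5 near PKDCC, 27.7 and 36.8 in NEDD9, and 27.0 and 31.9 near PPP1R2B. They were lower at the regulator genes, with 11.0 and 16.8 at CFLAR, 13.3 and 13.0 downstream of NFKBIZ and 9.12 and 13.5 between BIRC3 and BIRC2, and at the site near PPA2, with 12.2 and 9.75. By the rule, none of the 10 had an untreated peak. The nearest untreated peak lay 91 bp away in NEDD9 and 555 bp away at BIRC2, but 10855 bp away near PKDCC, 45260 bp away near C1orf94 and 107870 bp away near PPA2.

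To ask whether gained sites neighboured each other more than other sites do, the same count was made for lost sites, which had a peak in both untreated libraries only, and for the 4 mixed patterns, which paired 1 untreated with 1 TWEAK library. The share of gained sites that were clustered was 19.3% (95% Wilson interval 18.6 to 20.1, counting error only). It was higher among lost sites, at 35.4% (4128 of 11664, where lost sites were 3.79% of all sites). Among the mixed patterns it ran from 11.8% of 3650 sites, for untreated replicate 1 with TWEAK replicate 2, to 23.1% of 8580 sites, for untreated replicate 2 with TWEAK replicate 1. In the lists as deposited, the gained share thus fell below the lost share and inside the range of the mixed patterns. The lost share stayed the higher with a deposited value of at least 5 (22.2% against 20.2%) and with the same number of peaks from each list (26.8% against 21.6%). With only peaks of at least 5 times the background the order turned. The gained share was then 25.03% of 12290 sites and the lost share 13.1% of 4849 sites. The mixed patterns, with 2362 to 4724 sites, had shares of 7.90% to 16.3%. The order of gained and lost also turned without TWEAK replicate 2, when a site was gained by a peak in the other TWEAK library alone. There 58.2% of 34394 gained and 50.7% of 19501 lost sites were clustered. Without any other single library the lost share stayed the higher. A pattern with more sites also has more neighbours by number alone, and the part of this in the turns of order was not tested. Of the gained sites, 5724 had no other gained site within 50 kb and 3217 had 1, just outside the rule, whereas 1263 had exactly 2 and were just inside it. A further 514 had 3, and the most crowded site had 12.

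The patterns differed in where their clusters lay. A clustered gained site had a median of 23 other sites of any pattern within 50 kb (quartiles 13 and 47), compared with 51 for clustered lost sites and 53 to 70 for the mixed patterns. Neighbourhoods of at most 20 other sites, called sparse here, held 955 of the 2139 members (44.6%). Clustered sites were found in sparse neighbourhoods in 7.12% of cases for the lost pattern and in 2.32% to 6.85% for the mixed patterns. Taking sparse gained sites alone, 955 of 7297 (13.1%) were clustered, against 294 of 5082 lost sites (5.79%) and 0.673% to 3.41% in the mixed patterns. In dense neighbourhoods the order was another one, with 31.3% of gained sites, 58.2% of lost sites and 19.4% to 40.2% of the mixed patterns clustered. The plot of site density shows the gained curve above the other 5 over most of its range.

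**Figure D1:**
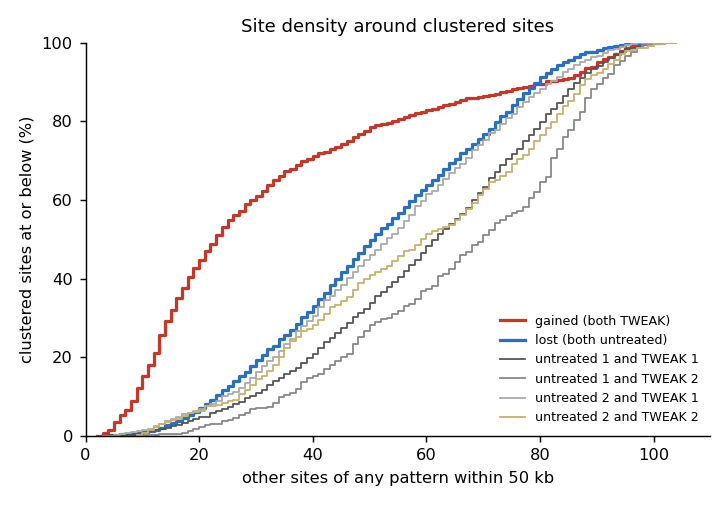
Cumulative share of clustered sites (%, vertical axis) by the number of other sites of any pattern within 50 kb (horizontal axis), for the 6 patterns of presence in exactly 2 libraries. At 20 neighbours the gained curve stands at 44.6% and the lost curve at 7.12%.

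Chromosome 8 held more members than any other chromosome, 296 (13.8%), and 38.9% of its gained sites were clustered, with a median of 72 sites within 50 kb of any site there. It held 22.1% of clustered lost sites and 20.2% to 49.2% of the clustered sites of the mixed patterns. Chromosome 7 had 156 members and 665 clustered lost sites, and chromosome 20 had 82 and 434. On chromosomes 4, 18 and X, where the median was 8 sites, 14.9%, 16.6% and 9.06% of gained sites were clustered. What part the density of sites has in the clustering of any pattern was not tested beyond this split.

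To set neighbours against what the number of sites gives, the share of gained sites among all neighbours of a gained site was divided by the share of gained sites among all sites of the same kind of neighbourhood. In sparse neighbourhoods 6.31% of the neighbours within 50 kb were gained, whereas 4.75% of sites there were gained, a ratio of 1.33. The ratio was 1.06 for lost sites and 0.969 to 1.11 for the mixed patterns. It fell with distance for gained sites, from 1.73 within 5 kb to 1.45 at 5 to 10 kb, 1.37 at 10 to 25 kb and 1.17 at 25 to 50 kb. In dense neighbourhoods the gained ratio was 1.19, close to the lost ratio of 1.16 and the highest mixed ratio of 1.15. Without the split by density the gained ratio was 1.09, lower than the lost ratio of 1.25 and within the mixed range of 1.07 to 1.30. The ratio of gained neighbours was thus above 1 in both kinds of neighbourhood, and it stood further from those of the other patterns in sparse ones.

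**Figure D2:**
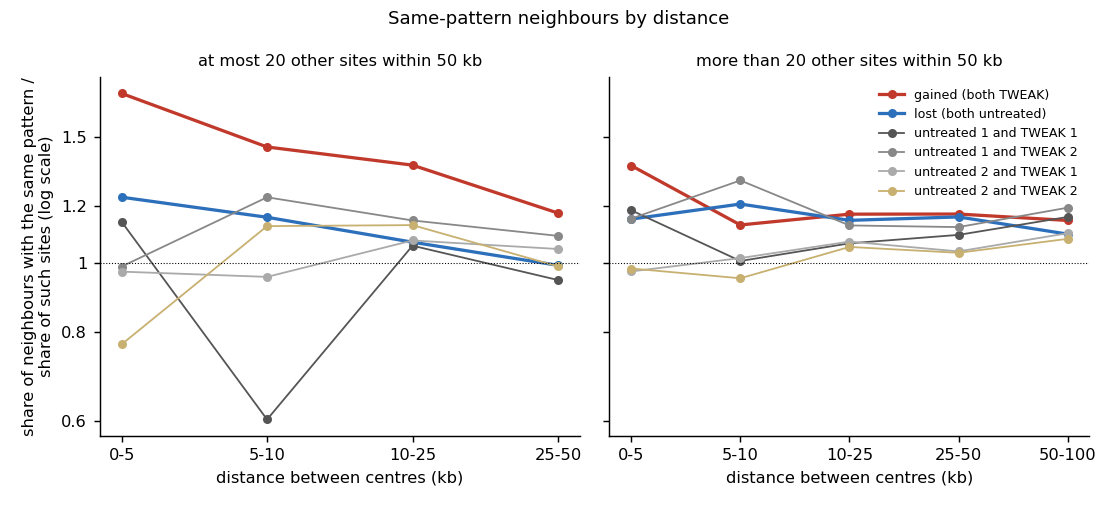
Share of neighbours with the same pattern divided by the share of such sites (vertical axis, log scale), by distance between centres in kb (horizontal axis), in neighbourhoods of at most 20 (left) and more than 20 (right) other sites within 50 kb. Lines stand for the 6 patterns and the dotted line for a ratio of 1, and the gained line falls from 1.73 to 1.17 in sparse neighbourhoods.

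Most clusters were small. There were 410 clusters with 3 gained sites, 151 with 4 and 59 with 5, and the largest had 22. The median span from the first to the last gained site was 53.0 kb, similar to the 52.4 to 61.0 kb of the other 5 patterns. In the median cluster 27.3% of all sites in the span were gained, whereas lost sites made up 15.0% of the median lost cluster and the mixed patterns 10.6% to 12.9% of theirs. Gained sites were 50% or more of the sites in 158 of 685 clusters, against 53 of 890 lost clusters and 64 of 1353 mixed clusters. In 34 clusters every site of the span was gained (4.96%), as compared to 9 lost clusters (1.01%) and 8 mixed ones. Since the span runs between sites of the pattern, small clusters reach such shares most easily, and of those with 4 or more sites 6 were gained, 1 was lost and none was mixed.

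The letters of the sites were not used to choose them. The NF-kB motif lay in 437 of 2139 members (20.4%, 95% Wilson interval 18.8 to 22.2). This was close to the 19.96% (19.1 to 20.8) of gained sites outside clusters and above the 5.21% of clustered lost sites, the 5.10% of clustered sites of the mixed patterns, the 5.96% of sites with a peak in all 4 libraries and the 6.21% of all sites. The share was 10.8% without TWEAK replicate 2 and 12.57% without TWEAK replicate 1, where gained sites rest on 1 TWEAK library. Being clustered therefore went with no higher NF-kB share over all members, although it was 24.4% (21.8 to 27.2) in sparse and 17.2% (15.2 to 19.5) in dense neighbourhoods. Outside clusters the same split gave 20.5% (19.6 to 21.5) and 18.6% (17.1 to 20.1). Intervals for sites treat neighbouring sites as independent, which they are not.

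The AP-1 motif behaved differently. It lay in 284 members (13.3%, 11.9 to 14.8), fewer in proportion than the 17.4% (16.7 to 18.2) of gained sites outside clusters. It was found in 4.14% of clustered lost sites, 5.56% of clustered sites of the mixed patterns, 10.6% of the sites in all 4 libraries and 9.01% of all sites. Without TWEAK replicate 2 the share of members was 9.64%, and without TWEAK replicate 1 it was 10.2%, both under that of the sites in all 4 libraries. In sparse neighbourhoods members reached 17.8% (15.5 to 20.4), and sites outside clusters 19.6% (18.6 to 20.5). In dense neighbourhoods the shares were 9.63% (8.08 to 11.4) and 12.2% (11.0 to 13.6). Both motifs were present in 50 members, and 1468 (68.6%) had neither.

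**Figure D3:**
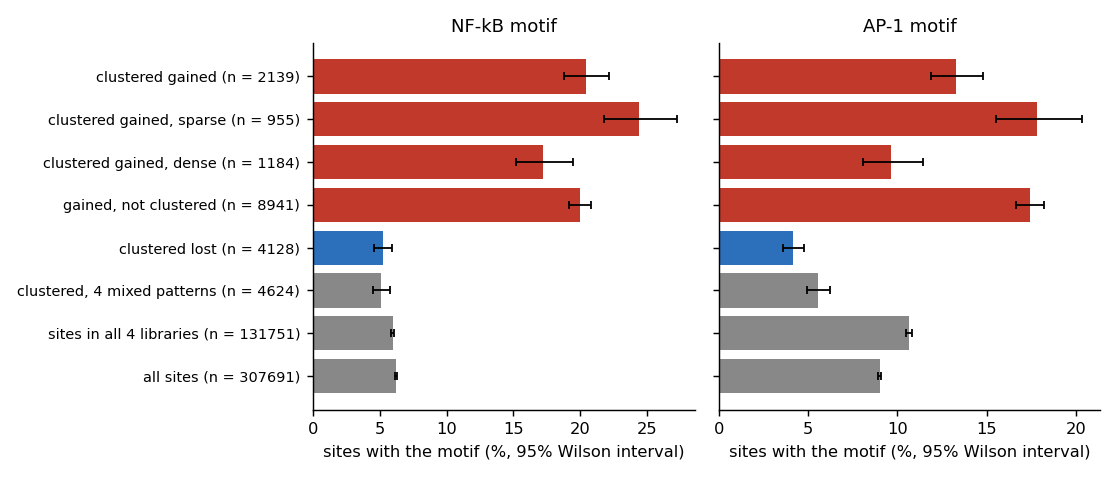
Share of sites with the NF-kB motif (left) and the AP-1 motif (right) within 100 bp of the peak centre (%, horizontal axes from 0), with bars for sets of sites and whiskers for 95% Wilson intervals. The 4 gained sets exceed all others for NF-kB, whereas dense gained clusters, at 9.63% for AP-1, do not exceed the 10.6% of sites found in all 4 libraries.

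Among the NF-kB words, those of the classical form recurred most. The word GGGACTTTCC was present in 59 members (2.76%) and in 0.177% of the sites in all 4 libraries. The words GGGGATTTCC and GGGGAATTCC were present in 43 (2.01%) and 37 members (1.73%), compared with 0.131% and 0.176%. GGGGATTTCC is the word in the printed site near PPP1R2B, and GGGGAATTCC is found in reverse, as GGAATTCCCC, near PCBD1 and at BIRC2. Some words were no more frequent in members. GGGAGACTCC, found in reverse as GGAGTCTCCC in the printed site near PKDCC, was present in 2 members (0.0935%), compared with 0.131%. In all, the 437 members held 66 different words.

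Counted by cluster, 389 of 685 gained clusters (56.8%) had the NF-kB motif in at least 1 gained site and 113 (16.5%) in at least 2. The corresponding shares were 21.5% and 4.16% for lost clusters, and 13.5% to 22.1% and 0.709% to 2.25% for the mixed patterns. The AP-1 motif was present in 294 gained clusters (42.9%), against 18.2% of lost clusters and 11.3% to 25.2% of mixed ones. Neither motif was found in 181 gained clusters (26.4%), a group that was 65.1% of lost clusters. In most gained clusters with an NF-kB motif, 276 of 389, it lay in a single site.

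Members differed widely in strength. The median fold was 6.08 in TWEAK replicate 1 (quartiles 4.56 and 9.12) and 7.04 in TWEAK replicate 2 (5.41 and 10.3), compared with 5.70 and 7.04 for gained sites outside clusters. The folds of the replicates had a Spearman correlation of 0.780 over the 2139 members, a description across sites of the same libraries. Members with the NF-kB motif had medians of 8.74 and 9.75, those with AP-1 alone 6.84 and 8.12, and those with neither 5.70 and 6.50. A site whose peak ranked in the upper 50% of the list in both libraries was called strong. There were 406 strong members (19.0%), against 15.78% of gained sites outside clusters, and 43.8% of them had the NF-kB motif (39.1 to 48.7) against 14.9% (13.3 to 16.7) of the other 1733. In clustered lost sites 4.43% were strong, and in the mixed patterns 4.74% to 8.35%. Counted by cluster, 332 had no strong site, 249 had exactly 1 and 104 had 2 or more.

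Peaks in untreated cells often lay close by. The nearest untreated peak to a member was at a median of 1136 bp, and for 753 members (35.2%) it was within 500 bp, where a gained site and a peak placed differently in the lists cannot be told apart. Within 500 bp the corresponding share was 47.7% for clustered lost sites and 54.7% to 78.2% for the mixed patterns. In sparse neighbourhoods 127 of 955 members (13.3%) had such a close peak, and the median distance was 3672 bp. More than 10 kb from any untreated peak lay 246 members (11.5%). Gained sites outside clusters lay further off, with a median of 2343 bp, 25.6% within 500 bp and 20.5% over 10 kb. Among clustered sites of the lost pattern 62 (1.502%) were that far from any peak of the libraries that lacked them, as were 45 of the 4624 clustered sites of the mixed patterns. Restricted to sparse neighbourhoods, the shares came nearer, with 24.7% of members against 15.6% of lost and 9.76% to 13.97% of mixed sites.

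Members were mostly distal. Intergenic sequence held 1053 (49.2%), introns 851 (39.8%), exons 67 (3.13%) and promoters, within 1 kb of a start, 168 (7.85%). Sites in all 4 libraries were at promoters in 17.8% of cases. The median distance of a member to the nearest annotated transcription start of a protein-coding gene was 20.1 kb (33.0 kb in sparse and 12.9 kb in dense neighbourhoods), similar to the 21.5 kb of gained sites outside clusters. No protein-coding gene was overlapped by the span of 191 clusters.

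The largest clusters lay mostly in site-dense regions. Of the 20 with the most members, 8 were on chromosome 8, 13 held lost sites in the same span and 4 held neither motif. The largest, at ZHX2, a zinc-finger and homeobox protein, had 22 gained sites among 327 sites (6.73%) with 7 lost sites. Another was at PTPRF, which encodes a receptor tyrosine phosphatase (nearest start KDM4A), with 14 of 83 sites gained and 2 lost. A gene desert nearest to HAS2, a hyaluronan synthase, had 15 of 254, and the region around CSF3, which encodes granulocyte colony-stimulating factor, also had 14 of 254. At TNS3, a focal adhesion protein, 11 of 181 sites were gained and 4 of them had the NF-kB motif. The strongest site of the cluster lay upstream of TNS3 with folds of 30.4 and 31.9, without either motif and 84 bp from an untreated peak. The fold of the site at a TNS3 start that held 2 NF-kB words was 12.2 and 16.2. The other clusters of this group on chromosome 8 had 4.41% to 10.0% of their sites gained. Their spans overlapped ZNF704, HEY1 and, for a pair of them, TPD52, and the remaining ones overlapped no protein-coding gene and lay 155 kb from the POU5F1B start and 247 kb from that of MYC.

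Others of the 20 had no lost site in their span, and their gained shares varied, from 6.62% at CDK12 (10 of 151) to 57.1% near C1orf94. The desert nearest to C1orf94, chr1:34327947-34426959, had 8 gained sites among 14, of which 3 had the NF-kB motif and 2 the AP-1 motif. Its folds ran from 4.56 in TWEAK replicate 1 and 5.41 in replicate 2 at the weakest member to 46.0 and 44.4 at the strongest, which held both motifs. The 5 members to the left of the cluster's middle lay between 35227 and 77876 bp from any untreated peak. RNF165 and LOXHD1, the latter a gene known from inner ear hair cells, shared a cluster of 9 among 23 sites over 152 kb of chromosome 18, with folds of 3.80 to 11.4 and 5.41 to 11.9 and no strong site. NEDD9, a scaffold protein of focal adhesions and cell migration, had 9 among 33 sites within 45.6 kb, and 1 of them, in an intron, stood out with 27.7 and 36.8 where the other 8 had 4.56 to 8.36 and 4.87 to 8.12. ITPR1, the inositol trisphosphate receptor of the endoplasmic reticulum, had 9 among 80 sites, with 3 strong ones that each held the NF-kB motif. Their folds were 33.4 and 54.1, 11.8 and 11.4, and 27.4 and 41.2, whereas the remaining 6 stayed at or below 7.60 and 7.58. ERRFI1, a feedback inhibitor of EGFR family receptors, lay in the span of a cluster of 8 among 40 sites with a member 72.9 kb from the start of TNFRSF9, a TNF receptor.

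The clusters with the highest share of gained sites were mostly in sparse neighbourhoods, and 6 of the 10 richest overlapped no protein-coding gene. In 6 clusters of 4 sites every site of the span was gained. They lay nearest to PKDCC, PPA2, PPP1R2B, VSTM4, PCBD1 and APAF1, and their middles were 50.01 to 382 kb from these genes' starts. The cluster named for PPP1R2B reached into TIMD4, that named for APAF1 lay within ANKS1B, and that of VSTM4 lay within the gene itself. In each of the 6, at least 1 site had the NF-kB motif. Near PKDCC the 4 sites lay within 5.90 kb and had folds of 33.8, 11.4, 4.56 and 8.36 in TWEAK replicate 1 and of 39.5, 12.5, 4.33 and 9.75 in replicate 2. Near PCBD1, within 8.27 kb, they were 7.60, 4.94, 8.36 and 52.4, and 4.33, 7.04, 8.66 and 56.9. Both therefore had 1 high and 3 lower sites, whereas in VSTM4 the 4 ran from 5.70 to 10.6 and from 5.41 to 19.0. The PPA2 sites were the most isolated, at 98671 bp or more from any untreated peak, and those in VSTM4 lay at 71287 bp or more. The remaining 4 of the 10 richest clusters were nearest to CAMK1G (5 of 6 sites gained), SCYGR1, DUSP26 and CXCL12 (4 of 5 each). CXCL12, which encodes a chemokine, was the exception among the 10 in holding no NF-kB motif.

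To relate the clusters to the TWEAK pathway, 144 genes in 11 lists were examined for a member within 100 kb of their start. This was the case for 38 of them (26.4%), against 1669 of 19360 protein-coding genes (8.62%). A clustered lost site was within that distance of 28 listed genes (19.4%), against 15.3% of all genes (2956). The lists were compiled with results of these data known. Most also lay in site-rich places, with list medians of 19 to 83 sites within 100 kb against 28 for all genes, and the part that the number of sites has in these shares was not tested. The 38 genes lay near 35 clusters. Of these 35 clusters 18 held an NF-kB motif, a share not far from the 56.8% of all gained clusters. The share of gained sites in the span was 6.56% to 75%.

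Among the inhibitor and feedback genes of NF-kB, 5 of 12 had a member within 100 kb and 1 had a clustered lost site. NFKBIA encodes the inhibitor that holds NF-kB in the cytoplasm. Its cluster had 4 gained sites among 24, with folds of 14.8, 9.87, 3.04 and 3.42 in TWEAK replicate 1 and of 16.8, 8.12, 4.87 and 4.33 in replicate 2, and no NF-kB motif. NFKBIZ, an atypical nuclear member of the same family, had 4 among 10. They included a site 0.699 kb from an internal NFKBIZ start, with folds of 5.32 and 4.87, and the distal printed site with 13.3 and 13.0, which lay 18158 bp from any untreated peak. TNFAIP3, which encodes the ubiquitin-editing enzyme A20, had 5 among 24, and all were modest, with folds of 3.42 to 8.36 and 4.33 to 8.12. ZC3H12A, an RNase that degrades cytokine messages, had an intronic site with 30.0 and 33.0 among 3 gained sites. TNIP1, a partner of A20, had 3 among 29 sites and also a clustered lost site within 100 kb. Among the NF-kB subunits themselves (NFKB1, NFKB2, RELA, RELB and REL), 0 of 5 had a member within 100 kb, although each had 1 to 4 gained sites there, and RELB had a clustered lost site.

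For the receptor and its proximal signalling, 6 of 16 genes had a member within 100 kb and 3 a clustered lost site. TNFRSF12A, which encodes Fn14, was counted through a cluster at IL32, a cytokine gene. The span of that cluster overlapped IL32 and not TNFRSF12A, whose start lay within 100 kb of its members. The 3 gained sites of that cluster were among 5 sites, and the one at the IL32 start had folds of 4.94 and 11.4 with 2 overlapping NF-kB words. BIRC2 and BIRC3, which encode cIAP1 and cIAP2, share a locus on chromosome 11 with 4 gained sites among 9. A site 0.714 kb from the BIRC3 start had folds of 9.49 and 6.50, and the printed site, 1.08 kb from the BIRC2 start, held 2 NF-kB words. CHUK, which encodes the kinase IKKα of the non-canonical pathway, was near a cluster of 3 among 5 sites at ERLIN1 whose middle site had folds of 14.1 and 15.7. IKBKG and TRAF2 had 3 members each and also clustered lost sites within 100 kb, whereas MAP3K14, which encodes the kinase NIK, had 2 gained sites and no member.

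Of the TNF superfamily, 7 of 15 genes had a member within 100 kb and 2 a clustered lost site, but TNF, LTA and LTB share 1 cluster with folds of at most 7.04. FAS, which encodes a death receptor, lay beside ACTA2 in a cluster where 3 of 4 sites were gained. The folds of these were 6.08, 6.46 and 12.2 in TWEAK replicate 1 and 7.04, 12.5 and 13.5 in replicate 2, and the higher pair each held an NF-kB motif. Survival genes contributed 3 of 8, and 2 had a clustered lost site. CFLAR encodes the caspase-8 inhibitor cFLIP, and its 3 gained sites among 6 each held an NF-kB motif, with folds of 5.70, 4.94 and 11.0 in TWEAK replicate 1 and of 10.3, 5.96 and 16.8 in replicate 2. XIAP, another inhibitor of caspases, had 4 among 10 with a distal site at 18.6 and 23.3. IER3 had 3 among 13 and a clustered lost site as well.

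**Figure D4:**
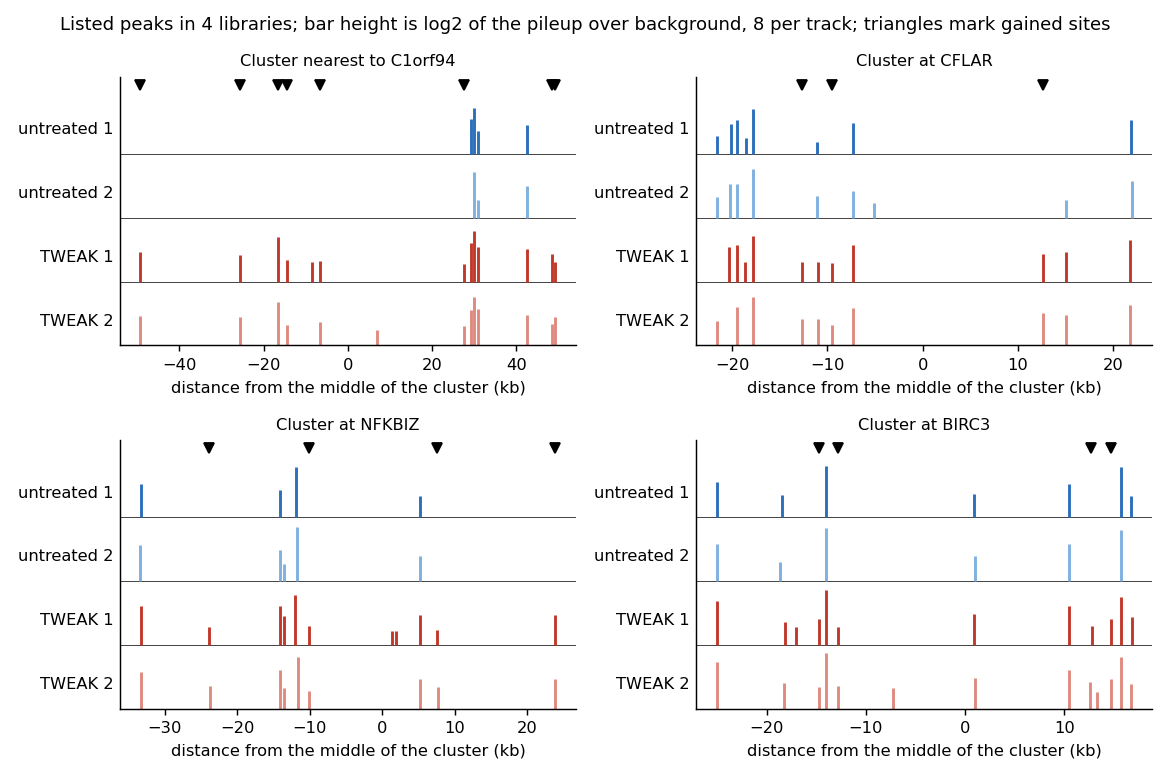
Peaks of the 4 lists at the clusters nearest to C1orf94, CFLAR, NFKBIZ and BIRC3, by distance from the middle of the cluster (kb, horizontal axis), with bar height giving log2 of the fold over background (8 log2 units per track) and triangles marking gained sites. At CFLAR and BIRC3 the gained sites lie among peaks of the untreated libraries, whereas the strongest at NFKBIZ lies 18158 bp from any and 5 near C1orf94 lie 35227 bp or more from any.

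Adhesion and matrix genes had members near 4 of 17 and clustered lost sites near 3. At ICAM1, the leukocyte adhesion molecule, 7 of 52 sites over 168 kb were gained, the strongest with folds of 12.5 and 20.6 between MRPL4 and ICAM1 and with an NF-kB motif. LAMB3, a chain of laminin-332, had 5 among 37, and a site in the neighbouring gene CAMK1G stood out with 28.5 and 31.4 and held 2 NF-kB words and an AP-1 motif. ITGB6, an epithelial integrin chain, had 2 clusters nearby, and an intronic site with an AP-1 motif reached 52.4 and 54.1 but lay 29 bp from an untreated peak. Of 20 chemokines and cytokines, CXCL8, IL32 and CSF1 had a member within 100 kb, and IL32 also a clustered lost site. The CXCL8 cluster was 3 among 9 sites, with folds of 5.32, 6.84 and 14.1, and 19.5, 8.12 and 22.7, and its member held 2 AP-1 motifs.

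Of the AP-1 and small MAF genes, 3 of 13 were near a member (FOSL2, JUND and MAFG) and 7 were near a clustered lost site (FOS, FOSB, FOSL1, JUND, BATF, MAFG and MAFK), in places with a median of 78 sites within 100 kb. FOSL2 had a site with folds of 15.2 and 23.3 in an intron, among 3 gained sites. Luminal and HER2 genes had 6 of 15 near a member (ERBB2, GRB7, ERBB3, EGFR, ELF3 and KRT19) and 4 near a clustered lost site, at a median of 83 sites. The ERBB2 and GRB7 cluster, whose span lay within IKZF3, had 4 gained among 61 sites without a motif. EGFR had 2 clusters, with folds of at most 7.04 at their strongest members. Of the basal keratin and EMT genes 3 of 15 were near a clustered lost site (KRT14, KRT17 and SNAI1) and 1 was near a member, KRT14, through the cluster it shared with KRT19, whose strongest site, near KRT37 and KRT38, had folds of 54.7 and 60.6. None of the 8 NAD synthesis genes was near a member and NAPRT was near a clustered lost site, and NAMPT had 3 gained and 3 lost sites within 100 kb, none of them clustered.

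The sites between the members also differed by kind of cluster. In the spans of sparse gained clusters, sites with a peak in 1 TWEAK library alone outnumbered those in 1 untreated library alone by 320 to 226, a ratio of 1.42, where the ratio over all sites in sparse neighbourhoods was 0.821 and over all sites 0.698. Sites with peaks in both TWEAK and 1 untreated library numbered 156 against 90 of the opposite kind, a ratio of 1.73 against 0.915 in sparse neighbourhoods and 0.780 overall. In the spans of sparse lost clusters the ratios were 0.698 and 0.644. In dense gained clusters the ratios were 0.794 and 0.868, also above the 0.591 and 0.680 over all sites in dense neighbourhoods. In all lost clusters they were 0.512 and 0.568. At sites with a peak in all 4 libraries, each library's log2 fold was centred on its median over such sites. In sparse gained clusters (838 such sites) the medians were 0.00 and 0.04 in untreated replicates 1 and 2 and 0.34 and 0.37 in TWEAK replicates 1 and 2, so the medians of the groups did not overlap there. Taken site by site, the mean of the TWEAK values less that of the untreated ones had a median of 0.10, against -0.09 over all shared sites in sparse neighbourhoods and -0.11 over all shared sites. Within replicate numbers 1 and 2 the difference had a median of 0.09 each in sparse gained clusters, against -0.08 and -0.09 in sparse neighbourhoods. In dense gained clusters (4972 sites) they were -0.17, -0.24, -0.23 and -0.20 in the same order, with no separation of the groups. Both TWEAK values exceeded both untreated values at 37.6% of the shared sites in sparse gained clusters, at 19.95% in dense ones, at 20.1% of shared sites in sparse neighbourhoods and at 18.5% of all 131751. Both were below both untreated values at 22.3%, 36.4%, 33.8% and 36.4% of them. These sites were picked by their place beside members, and no test was made.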

How the data were processed

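Accessible chromatin was profiled by ATAC-seq in 2 untreated and 2 TWEAK-treated SKBR3 libraries, grouped by their titles. According to the methods and the submitters' notes, the authors used Trimmomatic for adaptors, Bowtie2 to align to hg38, Bamtools against mitochondrial reads, Picard against duplicates and MACS2 to call peaks in each library, and blacklisted regions were taken out. Versions and shifting of reads for the transposase are not given in the sources used here. The deposited value of each peak is unlabelled and was read as the authors' -log10 p-value, since the values match a Poisson tail with 1 background per list. The pileup and its fold over that background, 1.85 to 3.59, were recovered from it. No read counts were used, so depth is known only through this background.

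Peaks overlapping by at least 1 bp were merged with Python 3.11.15, NumPy 2.4.6, pandas 2.3.3 and SciPy 1.17.1, and the code was tested on simulated data. Motifs were searched in 201 bp windows on both strands. Genes and transcription starts came from GENCODE release 44. Clusters were named by the nearest gene start. Named clusters were the 20 with the most members, the 10 with the highest gained share among those with at least 4 gained sites, and all with a member within 100 kb of a listed gene. The cluster of 1 listed gene is not reported here. The members and lists were chosen with earlier results of these data known. No test between groups was made, because presence in the lists chose the members.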

Additional observations from a re-analysis of the deposited data

How the results depend on the processing

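The main values were 2139 clustered gained sites, 19.3% of gained sites, with the NF-kB motif in 20.4% and the AP-1 motif in 13.3%. The count and the share followed the rule's own limits. With a distance of 25 kb they were 968 and 8.74%, with 100 kb 4300 and 38.8%, and with 3 other gained sites required 876 and 7.91%. Where peaks were joined only if they overlapped by 50%, they were 3551 and 27.4%, with 17.3% for NF-kB and 11.5% for AP-1. Setting aside sites with an untreated peak within 500 bp gave 983 and 12.2% (24.4% and 18.3%), and setting aside dense neighbourhoods gave 872 and 12.0% (24.3% and 18.0%). In the latter setting 4.19% of lost sites and 0.471% to 2.89% of mixed sites were clustered. Peaks with a deposited value of at least 5 gave a clustered share of 20.2% (23.2% and 17.5%), the same number of peaks from each list 21.6%, and a fold of at least 5 over the background 25.03% with 16.7% for AP-1. At that fold the lost share was 13.1% and the mixed shares 7.90% to 16.3%, so the order of gained and lost sites turned. That setting left 12290 gained but 4849 lost sites, and the cause of the turn was not tested. The lost share stayed above the gained one at a deposited value of at least 5 (22.2%), with equal numbers of peaks (26.8%), with 50% overlap (41.3%) and with sites set aside that lay within 500 bp of a peak of the libraries lacking them (17.1%). A motif window of 50 bp on either side gave 15.4% and 9.82%. Leaving out chromosome 8, chosen after seeing the data, gave a clustered share of 17.9%.

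Without 1 library, a pattern is read from 3 lists and more sites pass. The count ranged from 7616 without untreated replicate 1 to 20019 without TWEAK replicate 2, the share from 39.7% to 58.2%, NF-kB from 10.8% to 14.1% and AP-1 from 9.64% to 13.0%. Each gained share of the NF-kB motif stayed above the 4.65% to 4.99% of clustered lost sites under the same settings, whereas the AP-1 share without TWEAK replicate 1 or 2 fell below the 10.6% of sites in all 4 libraries. For these counts and shares, no paired analysis was possible because a peak in both TWEAK lists and in neither untreated list defines the sites. At shared sites of sparse gained clusters the log2 level could be compared within replicate numbers, and TWEAK less untreated had a median of 0.09 in each pair, as against 0.10 for the mean of the pairs, with no test.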
